A study of Mus musculus with 12 samples.

Results

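The proteasome is the protease that breaks down proteins tagged with ubiquitin. Its 49 measured genes were chosen by name, as every gene symbol that starts with Psma, Psmb, Psmc, Psmd, Psme, Psmf or Psmg plus a digit and stands alone on a probe set, out of 22180 genes on the arrays. Each gene was read from its brightest probe set, by the mean of the 12 arrays, and 3 of the 49 genes had more than 1 probe set. By role, 47 of them encode subunits, regulators or assembly factors of the proteasome, and 2 matched by name only. These 2 are Psmc3ip, which encodes a factor of meiotic recombination, and Psme3ip1, which encodes a partner protein of the Psme3 activator. One further gene, Psma4, sat only on probe sets that carry several symbols and was not analysed.

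The arrays measured total RNA of whole mouse lungs at E14.5, when the airway tree is still branching, in 3 genotypes of 4 specimens each. Yy1 mutants were Yy1flox/flox;Shh+/Cre and so lost Yy1, a zinc finger transcription factor, from cells with Cre. Dicer mutants were Dicerflox/flox;Shh+/Cre and lost Dicer1, the RNase that cuts microRNA precursors. Controls were Shh+/Cre, so all 3 groups carry the Cre allele, which also removes 1 working copy of Shh. In the lung Shh is made by the epithelium, so cells of the mesenchyme, vessels and blood keep both floxed genes. No litter, sex or processing date is labelled, nor whether a specimen is 1 embryo, and p-values therefore measure only the spread between these specimens.

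The Dicer mutant arrays read 8.03, 8.27, 8.26 and 8.22 for Dicer1 on the log2 scale, against 9.02, 8.85, 8.73 and 8.63 in controls, which is lower by 0.61 (adjusted p = 0.00127). The Yy1 mutant arrays read 8.87, 8.70, 8.85 and 8.95 for Yy1, against 9.01, 9.14, 8.98 and 9.01 in controls, and the difference of -0.19 was not called (adjusted p = 0.125). The groups did not overlap in either case. The place of either probe set relative to the floxed exons was not examined. Markers of other cell types also moved, counted at the adjusted p under 0.05 used throughout. Over all genes 6.61% were called in Yy1 mutants and 8.75% in Dicer mutants. Of 12 epithelial markers 10 were called lower in each mutant against control, and of 8 smooth muscle markers 7 were called lower in each. Of 16 leukocyte markers 11 were called higher in Yy1 mutants and 13 in Dicer mutants, and of 10 mesenchymal markers 6 and 7. Of 8 endothelial markers 1 was called higher in Yy1 mutants and 7 in Dicer mutants, and of 3 measured erythroid markers 0 were called by limma in Yy1 mutants (0 had an unadjusted p under 0.05) and 1, Slc4a1, was called higher in Dicer mutants. No marker was at 0 on any array. In whole lung RNA, fewer cells of a type and less RNA per cell cannot be told apart.

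In the working proteasome, a hollow core of alpha and beta rings does the cutting, and a regulatory particle at its end binds, unfolds and feeds in the substrate. The particle's base holds a ring of ATPases with large scaffold subunits, and its lid removes the ubiquitin chain. Cells exposed to interferon swap the catalytic beta subunits for the immunoproteasome forms, which favour peptides for display on major histocompatibility complex (MHC) class I molecules. Dedicated chaperones (Psmg1 to Psmg4 for the core, Psmd5, Psmd9 and Psmd10 for the base) guide assembly, and the transcription factor Nfe2l1 drives the whole gene set when proteasome activity falls. By class, the measured genes were 7 alpha ring genes, 7 beta ring genes, 4 immunoproteasome or thymoproteasome genes, 6 base ATPases, 3 other base genes, 8 lid genes, 5 activator or inhibitor genes, 4 core chaperones and 3 base chaperones.

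Psmc4, Psmd1, Psmd2 and Psmb10 were among the genes called in a comparison below, and the 120 bases before the start of each are printed to show the sequence next to their start sites. They come from RefSeq for the GRCm38.p6 build, on the gene's strand, and no letter is capitalised because none of the 4 motifs described below lies in these stretches. Psmc4 is at chr7:28050093-28050212, minus strand, Psmd1 at chr1:86064499-86064618, plus strand, Psmd2 at chr16:20651532-20651651, plus strand, and Psmb10 at chr8:105938393-105938512, minus strand.
Psmc4: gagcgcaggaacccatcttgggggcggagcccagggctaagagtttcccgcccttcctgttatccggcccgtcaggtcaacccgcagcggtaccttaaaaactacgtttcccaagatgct
Psmd1: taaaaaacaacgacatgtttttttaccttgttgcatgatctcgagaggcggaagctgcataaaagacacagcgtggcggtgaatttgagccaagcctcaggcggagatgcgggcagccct
Psmd2: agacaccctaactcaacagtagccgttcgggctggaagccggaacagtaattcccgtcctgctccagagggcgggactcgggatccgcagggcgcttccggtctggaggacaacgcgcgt
Psmb10: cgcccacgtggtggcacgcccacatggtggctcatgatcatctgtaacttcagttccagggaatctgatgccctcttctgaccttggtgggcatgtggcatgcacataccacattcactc

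Yy1 is itself a DNA-binding factor, and its core motif, searched as GCCATNTT on both strands, is shown where a proteasome promoter held it. A promoter here is 250 bases before to 50 bases after a RefSeq start, and 41 of the 49 genes had at least 1. The motif lay in a promoter of 5 of the 41 genes (12.2%), against 6.96% of the 27025 genes with a promoter in the same table. By promoter the shares were 11.1% of 45 and 6.05% of 32851. The 5 genes were Psma2, Psmb5, Psmb6, Psmc5 and Psmd8. By class these were 3 of 10 core genes with a promoter, 2 of 14 base and lid genes and 0 of 4 immunoproteasome genes. Psmb5 held the motif at 3 places. Counted in bases before the RefSeq start, the match began at -30 in Psma2, -37 in Psmb6 and -3 in Psmc5. In Psmb5 the matches began at 176, 91 and -1, and in Psmd8 the match began at 7. Negative values lie after the start, so the matches were not all upstream of it. The 30-base windows below have the motif in capitals, on the gene's strand, so that a motif on the opposite strand reads as its reverse complement. Psma2 is at chr13:14613261-14613290, plus strand. Psmb5 is at chr14:54618153-54618182, chr14:54618068-54618097 and chr14:54617976-54618005, minus strand. Psmb6 is at chr11:70525377-70525406, plus strand, Psmc5 at chr11:106256177-106256206, plus strand, and Psmd8 at chr7:29180662-29180691, minus strand.
Psma2: ctttccgggtaAAGATGGCagagcgcggtt
Psmb5, first: atgccaaaataAAAATGGCaatcttaacca
Psmb5, second: tgcccggagtaAAAATGGCgccgcctccgt
Psmb5, last: tgcccttgctaAACATGGCgctggctagcg
Psmb6: tggcagagtagcagaggAAGATGGCggccg
Psmc5: ccgagagagggAAGATGGCgcttgatgggc
Psmd8: gacttccgttcGCCATTTTgaatgacagca

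The core of the antioxidant response element, the motif read by Nfe2l1 and Nfe2l2, was searched as TGACNNNGC on both strands. It lay in a promoter of 6 proteasome genes (14.6%), against 14.0% of all genes with a promoter. The same window size is used, with the motif in capitals, for 2 core genes with both motifs. Psmb5 is at chr14:54618023-54618052, minus strand, and Psmb6 at chr11:70525338-70525367, plus strand. The other 4 genes were Psmc6, Psmd9, Psmd12 and Psme4.
Psmb5: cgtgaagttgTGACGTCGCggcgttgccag
Psmb6: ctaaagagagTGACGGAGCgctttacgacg

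The other motifs, also searched on both strands, were the NF-Y box CCAAT, in 16 of 41 genes (39.0%) against 41.1% of all genes, and the interferon-stimulated element GAAANNGAA, in 7 (17.1%) against 9.76%. None of the 4 immunoproteasome genes held that element in this window. No overlap between motifs was removed. These are matches of letters, and binding was not measured.

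In Dicer mutants against control 4 genes of the regulatory particle were lower, and 1 immunoproteasome gene was higher. Psmc4, Psmd1, Psmd2 and Psmd3 fell by 0.22 to 0.28 on the log2 scale, which is 1.17-fold to 1.21-fold, and Psmb10 rose 1.27-fold. In Yy1 mutants against control Psmc4 alone was called, 1.20-fold lower. Calls are at an adjusted p under 0.05 (limma, Benjamini-Hochberg over all 22180 genes, two-sided), and folds, differences and levels below are on the log2 scale unless a fold is named.

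In Dicer mutants 5 of the 49 genes were called (10.2%), where 8.75% of all genes were called. Downward calls made up 4 of 49 (8.16%), against 3.97% of all genes, and upward calls 1 of 49, against 4.78%. In Yy1 mutants 1 of 49 was called (2.04%), against 6.61% of all genes. Between the mutants, Yy1 minus Dicer, 1 of 49 was called, against 4.96%. The shares called among the proteasome genes were therefore near or below the background, apart from the downward share in Dicer mutants. Called genes included, 44 of the 49 differences in Dicer mutants were below 0 (89.8%), with a median of -0.11, against 57.2% and -0.03 over all genes. In Yy1 mutants 34 were below 0 (69.4%), with a median of -0.04, against 49.5% and 0.00. The genes are measured on the same arrays and both mutants on the same controls, so these counts are descriptions. The 95% interval of a proteasome gene's difference reached, at the median, 0.16 to either side of it, and in both comparisons with control 48 of the 49 intervals lay within 0.5 of 0.

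**Figure D1:**
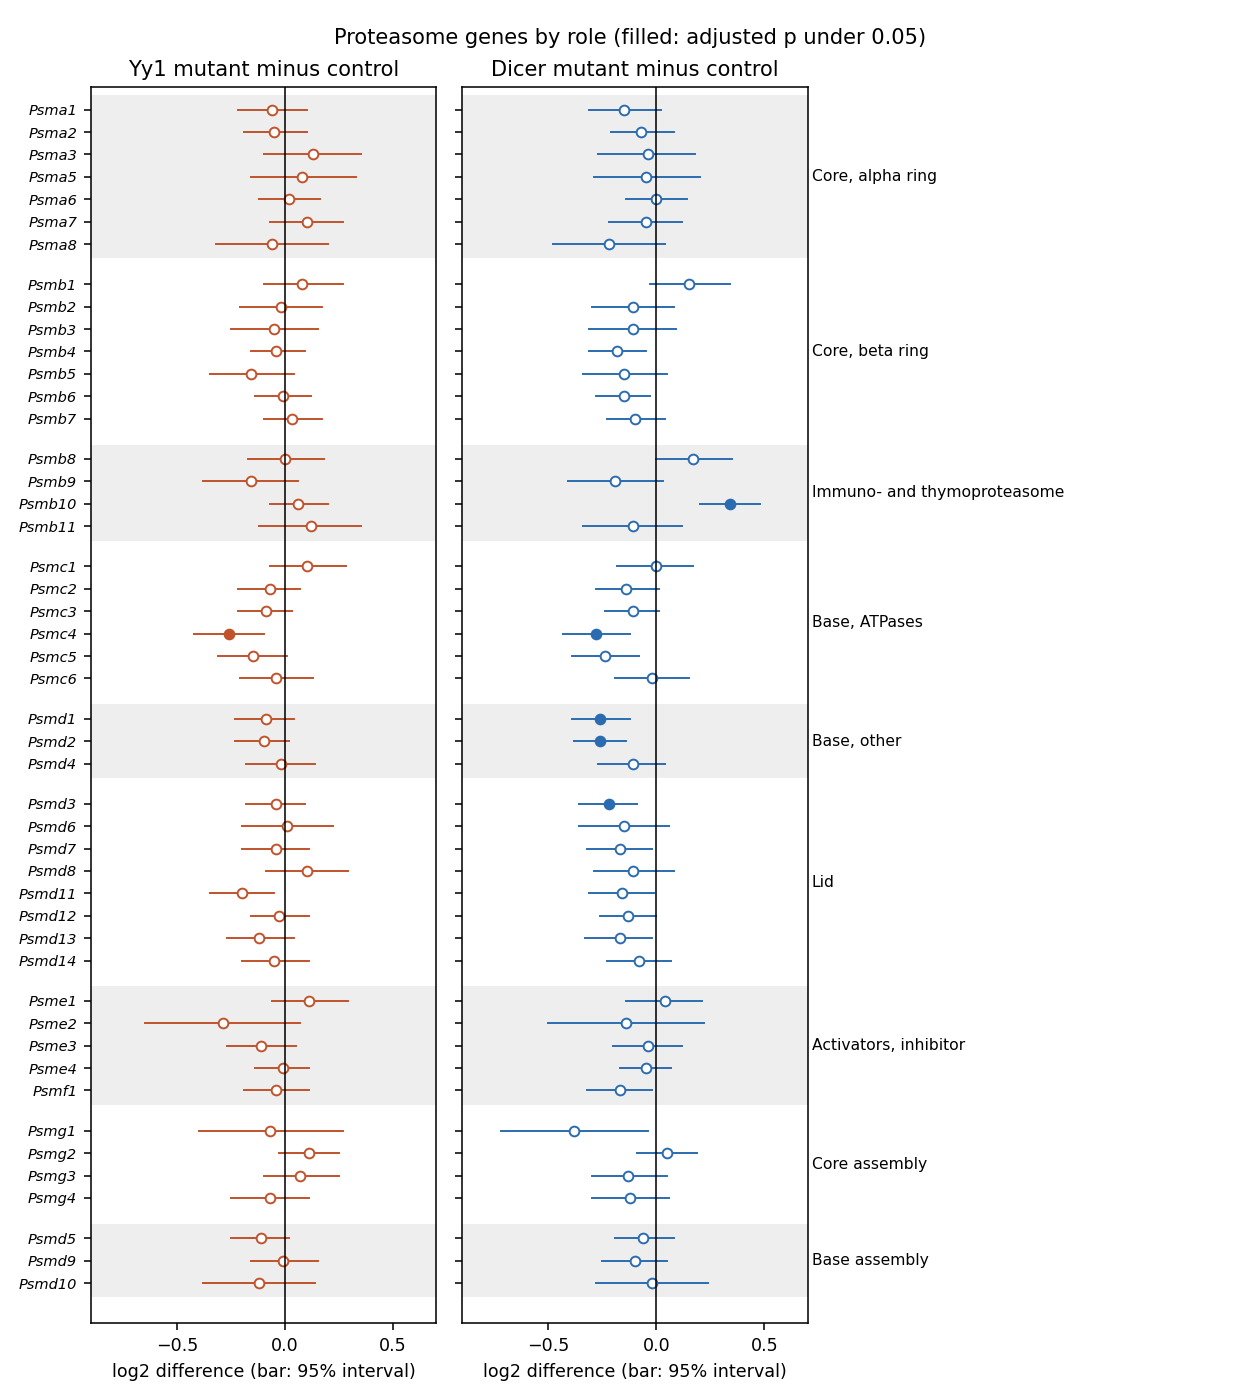
Each point is the log2 difference of 1 proteasome gene between 4 mutant and 4 control arrays, with its 95% interval, ordered by role (rows), for Yy1 mutants (left panel) and Dicer mutants (right panel); filled points passed the adjusted p. All 17 base and lid points in Dicer mutants lie below 0, the nearest being Psmc1 at -0.00. Of these 4 are filled, and Psmb10 is the filled point above 0.

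The regulatory particle held all the genes called lower. In Dicer mutants all 9 base genes were below 0, with a median of -0.14 and 3 called, and all 8 lid genes were below 0, with a median of -0.16 and 1 called. The base differences ran from -0.28 for Psmc4 to -0.00 for Psmc1, so the sign alone says little for the smallest. Over all genes 57.2% were below 0 and 3.97% were called lower. Of the 17 base and lid genes 8 had an unadjusted p under 0.05, all of them lower, beside 12.1% of all genes that were lower at that p. Over all 49 proteasome genes 13 had such a p (26.5%), against 22.3% of all genes, and 12 of them were lower (24.5%). In Yy1 mutants 14 of the 17 were below 0, with a median of -0.05, against 49.5% and 0.00 over all genes. Of the 17, 1 was called, where 6.61% of all genes were. Between the mutants 15 of the 17 were higher in Yy1 mutants than in Dicer mutants, with a median of 0.09 against 0.03 over all genes. limma called 0 of the 17, and 4 had an unadjusted p under 0.05, beside 17.9% of all genes.

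Psmd2, the large base scaffold that docks ubiquitin carriers, read 9.46, 9.48, 9.54 and 9.47 in Dicer mutants and 9.65, 9.66, 9.64 and 9.63 in Yy1 mutants, against 9.78, 9.82, 9.73 and 9.67 in controls. The 3 genotypes did not overlap, with Dicer mutants lowest and controls highest. Psmd2 fell by 0.26 in Dicer mutants (SE 0.0566, 1.20-fold, adjusted p = 0.0112). The Yy1 difference of -0.10 was not called (adjusted p = 0.350), nor was that between the mutants (0.16, adjusted p = 0.156). Of 21 alternative settings, 1 ended the Dicer call. Without the 3 arrays on which Y-linked genes were raised (Yy1 mutants 2 and 3, Dicer mutant 4), called the 3 Y-linked-high arrays below, the adjusted p was 0.0778. They were not raised alike. Y-linked Uty read 8.52 on Yy1 mutant 2, 8.28 on Dicer mutant 4 and 5.14 on Yy1 mutant 3, against 3.75 to 4.34 elsewhere.

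Psmd1, the second scaffold of the base, read 9.56, 9.58, 9.63 and 9.56 in Dicer mutants and 9.77, 9.75, 9.71 and 9.75 in Yy1 mutants, against 10, 9.81, 9.75 and 9.80 in controls. All Dicer mutant arrays lay below all others, and the Yy1 mutants overlapped the controls. Psmd1 fell by 0.26 in Dicer mutants (SE 0.0644, 1.19-fold, adjusted p = 0.0243), and the Yy1 difference of -0.09 was not called (adjusted p = 0.483). The call was lost without Dicer mutant 1 (adjusted p = 0.0515), Dicer mutant 2 (0.0616), Dicer mutant 4 (0.0716), control 1 (0.0583) or the 3 Y-linked-high arrays (0.118), and in a fit of only the groups compared (0.0642).

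Psmc4, an ATPase of the base ring, was called in both mutants. It read 9.47, 9.62, 9.60 and 9.49 in Yy1 mutants and 9.59, 9.59, 9.54 and 9.40 in Dicer mutants, against 9.95, 9.78, 9.80 and 9.70 in controls. Every mutant array lay below every control array, and the mutants overlapped each other. The difference was -0.26 in Yy1 mutants (SE 0.0726, 1.20-fold, adjusted p = 0.0492) and -0.28 in Dicer mutants (1.21-fold, adjusted p = 0.0304). Between the mutants it was 0.02, with a 95% interval from -0.14 to 0.17. The Yy1 call was lost under 15 of 21 settings. It was lost with any 1 of the 12 arrays left out except control 4, with adjusted p from 0.0502 to 0.140. Without the 3 Y-linked-high arrays it was 0.0876. The Dicer call was lost without Dicer mutant 3 (adjusted p = 0.0669), Dicer mutant 4 (0.105), control 1 (0.0860), control 3 (0.0648) or the 3 Y-linked-high arrays (0.131), and with only the groups compared (0.0616).

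Psmd3, a scaffold of the lid, read 8.42, 8.35, 8.35 and 8.30 in Dicer mutants and 8.54, 8.51, 8.59 and 8.51 in Yy1 mutants, against 8.64, 8.67, 8.49 and 8.53 in controls. Dicer mutants lay below both other groups, which overlapped. Psmd3 fell by 0.22 in Dicer mutants (SE 0.0619, 1.17-fold, adjusted p = 0.0380), and the Yy1 difference was -0.04 (adjusted p = 0.791). The call was lost under 11 of 21 settings, among them without Dicer mutants 2 (adjusted p = 0.0868), 3 (0.0868) or 4 (0.118), Yy1 mutants 1 (0.0540) or 3 (0.0529), controls 1 (0.0944) or 2 (0.0822), or the 3 Y-linked-high arrays (0.169).

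**Figure D2:**
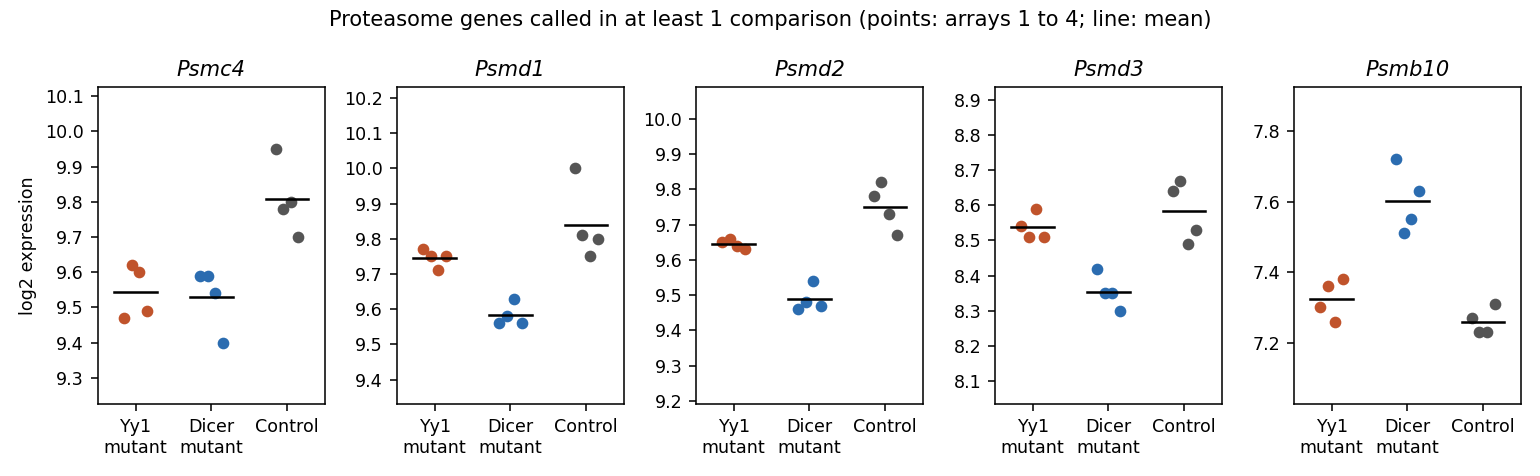
Log2 expression (y axis of each panel, which does not start at 0) of the 5 proteasome genes called in at least 1 comparison, by genotype (x axis); points are single arrays and lines are means of 4 arrays. Psmc4 is low in both mutants, Psmd1, Psmd2 and Psmd3 are lowest in Dicer mutants, and Psmb10 is high in Dicer mutants, at 7.51 to 7.72.

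Among lid genes that were not called, Psmd11, a lid scaffold, had the largest difference in Yy1 mutants. It read 9.87, 9.75, 9.79 and 9.98 in Yy1 mutants and 9.88, 9.96, 9.88 and 9.83 in Dicer mutants, against 10.11, 10.11, 9.96 and 10.02 in controls. The Yy1 mutants overlapped the controls at 1 array. The differences were -0.20 (adjusted p = 0.112) and -0.16 (adjusted p = 0.180). Psmd14, the lid's deubiquitinating enzyme, had the smallest lid difference in Dicer mutants, at -0.08. Psmd8, a lid subunit with the YY1 motif shown above, differed by 0.10 in Yy1 mutants and -0.11 in Dicer mutants. Psmc5, a base ATPase with that motif, read 8.15 to 8.32 in Dicer mutants, against 8.36 to 8.59 in controls. The groups did not overlap, and the difference of -0.24 was not called (adjusted p = 0.0688), though it was under 4 of the 21 alternative settings.

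No core gene was called in either mutant. In Dicer mutants 13 of 14 core genes were below 0, with a median of -0.10. limma called 0 of them, and 2 had an unadjusted p under 0.05, both lower, beside 12.1% of all genes. In Yy1 mutants 8 of 14 were below 0, with a median of -0.01, and 0 were called (0 had an unadjusted p under 0.05). All 7 alpha ring genes were below 0 in Dicer mutants, from -0.22 for Psma8, a form known from the testis, to -0.00 for Psma6. In Yy1 mutants they ran from -0.06 for Psma1 to 0.13 for Psma3. Psma8 and Psma5 were dim, at 5.28 to 5.92 and 5.26 to 5.78, below the array medians of 5.99 to 6.08.

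The catalytic beta subunits are Psmb6, Psmb7 and Psmb5. Psmb6 read 9.35, 9.29, 9.24 and 9.32 in Dicer mutants, against 9.50, 9.49, 9.49 and 9.36 in controls, where control 4 stood apart. The groups did not overlap, by 0.01 between the nearest arrays. The difference was -0.15 in Dicer mutants (adjusted p = 0.133) and -0.01 in Yy1 mutants (adjusted p = 0.966). Psmb7 differed by 0.03 in Yy1 mutants and -0.10 in Dicer mutants, and Psmb5, with 3 YY1 motifs, by -0.16 and -0.15, with adjusted p of 0.380 and 0.383. Psmb5 read 8.38, 8.38, 8.43 and 8.49 in Yy1 mutants, against 8.62, 8.69, 8.62 and 8.39 in controls. Control 4 lay inside the Yy1 range and the other controls above it. None of the 5 genes with a YY1 motif was called in Yy1 mutants, where 6.61% of all genes were called. With 5 genes, that count cannot show whether genes with the motif differ from other genes.

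Psmb4, a beta ring subunit without a known active site, came nearest to a call in the core. It read 7.76, 7.80, 7.83 and 7.67 in Dicer mutants, against 7.95, 7.98, 7.92 and 7.93 in controls. The groups did not overlap. The difference was -0.18 in Dicer mutants (adjusted p = 0.0795) and -0.04 in Yy1 mutants (adjusted p = 0.822). With the dimmest 30% of genes left out of the test the adjusted p was 0.0428. Psmb1 was the core gene above 0 in Dicer mutants, at 0.15 (adjusted p = 0.324).

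**Figure D3:**
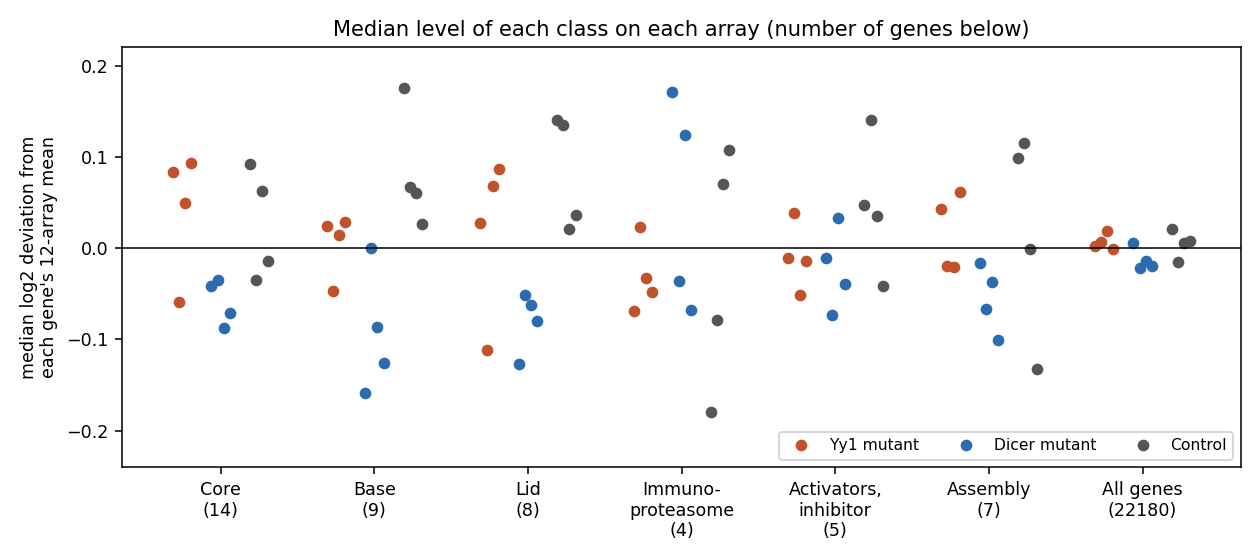
Median over the genes of a class (x axis, number of genes in brackets) of the deviation from each gene's mean over 12 arrays, in log2 units (y axis); each point is 1 array, coloured by genotype. In the lid all Dicer mutant arrays lie at or below -0.05 and all controls at or above 0.02, while in the immunoproteasome class the genotypes overlap.

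Array by array, the median of the 17 base and lid genes lay between -0.15 and -0.04 in Dicer mutants, against 0.03 to 0.15 in controls, as the log2 deviation from each gene's mean. The Yy1 mutants read 0.02, -0.09, 0.04 and 0.05 on that scale, so that Yy1 mutant 2 lay among the Dicer mutants, Yy1 mutants 3 and 4 within the range of the controls and Yy1 mutant 1 just below it. In the core the medians were -0.09 to -0.04 in Dicer mutants and -0.06 to 0.09 in Yy1 mutants, against -0.04 to 0.09 in controls. For all 22180 genes no array's median was further than 0.022 from 0.

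The immunoproteasome genes did not all move in 1 direction. The class had a median of 0.03 in both mutants against control, with 1 call among its 4 genes. The thymus form Psmb11 had a mean level among the dimmest 30% of genes. Psmb9 read 5.38 to 5.83 over the 12 arrays, below the array medians of 5.99 to 6.08. The brighter Psmb10 and Psmb8 were both above 0 in Dicer mutants. Psmb10 replaces Psmb7 in the immunoproteasome. It read 7.72, 7.51, 7.55 and 7.63 in Dicer mutants and 7.30, 7.36, 7.26 and 7.38 in Yy1 mutants, against 7.27, 7.23, 7.23 and 7.31 in controls. All Dicer mutant arrays lay above all others, and the Yy1 mutants overlapped the controls.

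Psmb10 rose by 0.34 in Dicer mutants (SE 0.0638, 1.27-fold, adjusted p = 0.00428) and kept that call under all 21 settings tried, with adjusted p from 0.00164 to 0.0386. In Yy1 mutants the difference was 0.06, with a 95% interval from -0.07 to 0.20 (adjusted p = 0.664). The difference between the mutants, Yy1 minus Dicer, was -0.28 (adjusted p = 0.0223). That last call was lost without Dicer mutant 1 (adjusted p = 0.0627), Dicer mutant 4 (0.0711), Yy1 mutant 1 (0.0629), Yy1 mutant 3 (0.0762) or the 3 Y-linked-high arrays (0.270).

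Psmb8, which replaces Psmb5, read 6.69, 6.58, 6.79 and 6.58 in Dicer mutants, against 6.31, 6.39, 6.61 and 6.64 in controls. The groups overlapped, and the difference of 0.17 was not called (adjusted p = 0.235). Psmb9, which replaces Psmb6, read 5.83, 5.53, 5.49 and 5.38 in Dicer mutants, against 5.64, 5.79, 5.82 and 5.76 in controls. Its difference ran the other way, at -0.19 (adjusted p = 0.287), and Dicer mutant 1 lay above all controls. In Yy1 mutants Psmb8 differed by 0.00 and Psmb9 by -0.16, neither called.

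Some genes that make and display the peptides rose in Dicer mutants. Of 9 measured MHC class I and interferon genes 5 were called higher there, where 4.78% of all genes were, with a median of 0.28 against -0.03 over all genes. The list was chosen with earlier results of these data known, so these shares are descriptions. Nlrc5, an activator of class I genes, was the 1 gene below 0, at -0.12 (adjusted p = 0.674), and is named after its value was seen. In Yy1 mutants limma called 0 of the 9, with a median of 0.13 against 0.00. Of the 9, 3 had an unadjusted p under 0.05, all higher, beside 1998 of all 22180 genes. Between the mutants 3 of the 9 were called lower in Yy1 mutants than in Dicer mutants, among 7 below 0. H2-K1, a class I heavy chain, read 7.10, 7.18, 7.03 and 7.07 in Dicer mutants, against 6.66, 6.31, 6.20 and 6.25 in controls. The groups did not overlap, and it rose by 0.74 (adjusted p = 0.00156). Erap1, which trims the peptides, rose by 0.59 (adjusted p = 0.000767), the light chain gene B2m by 0.31 (adjusted p = 0.0115) and the peptide transporter gene Tap2 by 0.29 (adjusted p = 0.0326).

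Irf1, an interferon-responsive transcription factor, rose by 0.28 (adjusted p = 0.0484), and its call was lost under 12 of 21 settings, with adjusted p up to 0.120. It was lost without any 1 of the 4 Dicer mutants, of controls 1, 2 and 4 or of Yy1 mutants 1 and 3 (adjusted p = 0.0627 to 0.120). Tap2 is among the dimmest 30% of genes and so had 20 settings. Its call was lost under 8 of them, without Dicer mutant 1, 2 or 4 or control 1 or 3 (adjusted p = 0.0634 to 0.0944), without the 3 Y-linked-high arrays (0.117), with an intensity trend and robust prior (0.0568) and with only the groups compared (0.0627). H2-K1, Erap1 and B2m kept their calls under all settings tried. In Yy1 minus Dicer, H2-K1 differed by -0.73 (adjusted p = 0.00231), Erap1 by -0.40 (adjusted p = 0.0138) and Tap2 by -0.39 (adjusted p = 0.0103). The Erap1 call was lost without Dicer mutant 3 (adjusted p = 0.05) and, with that of Tap2, without the 3 Y-linked-high arrays (0.108 and 0.134).

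Leukocytes and endothelium are known to express immunoproteasome and class I genes. The summed linear level of the 16 leukocyte markers was 2901 to 3390 in Yy1 mutants and 3230 to 3848 in Dicer mutants, against 2191 to 2346 in controls. The 8 endothelial markers summed to 6520 to 7726 in Yy1 mutants and 8698 to 9304 in Dicer mutants, against 6207 to 7321 in controls. The 3 erythroid markers summed to 402 to 462 in Yy1 mutants and 666 to 959 in Dicer mutants, against 403 to 484 in controls. These were 3 of 8 listed, and they did not rise alike in Dicer mutants. Slc4a1 differed by 1.02 and Klf1 by 0.00, and Slc4a1 alone was called. So the leukocyte sums were above control in both mutants, and the endothelial and erythroid sums stood clear of control in Dicer mutants, where Psmb10 rose. Their part in the result was not tested.

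**Figure D4:**
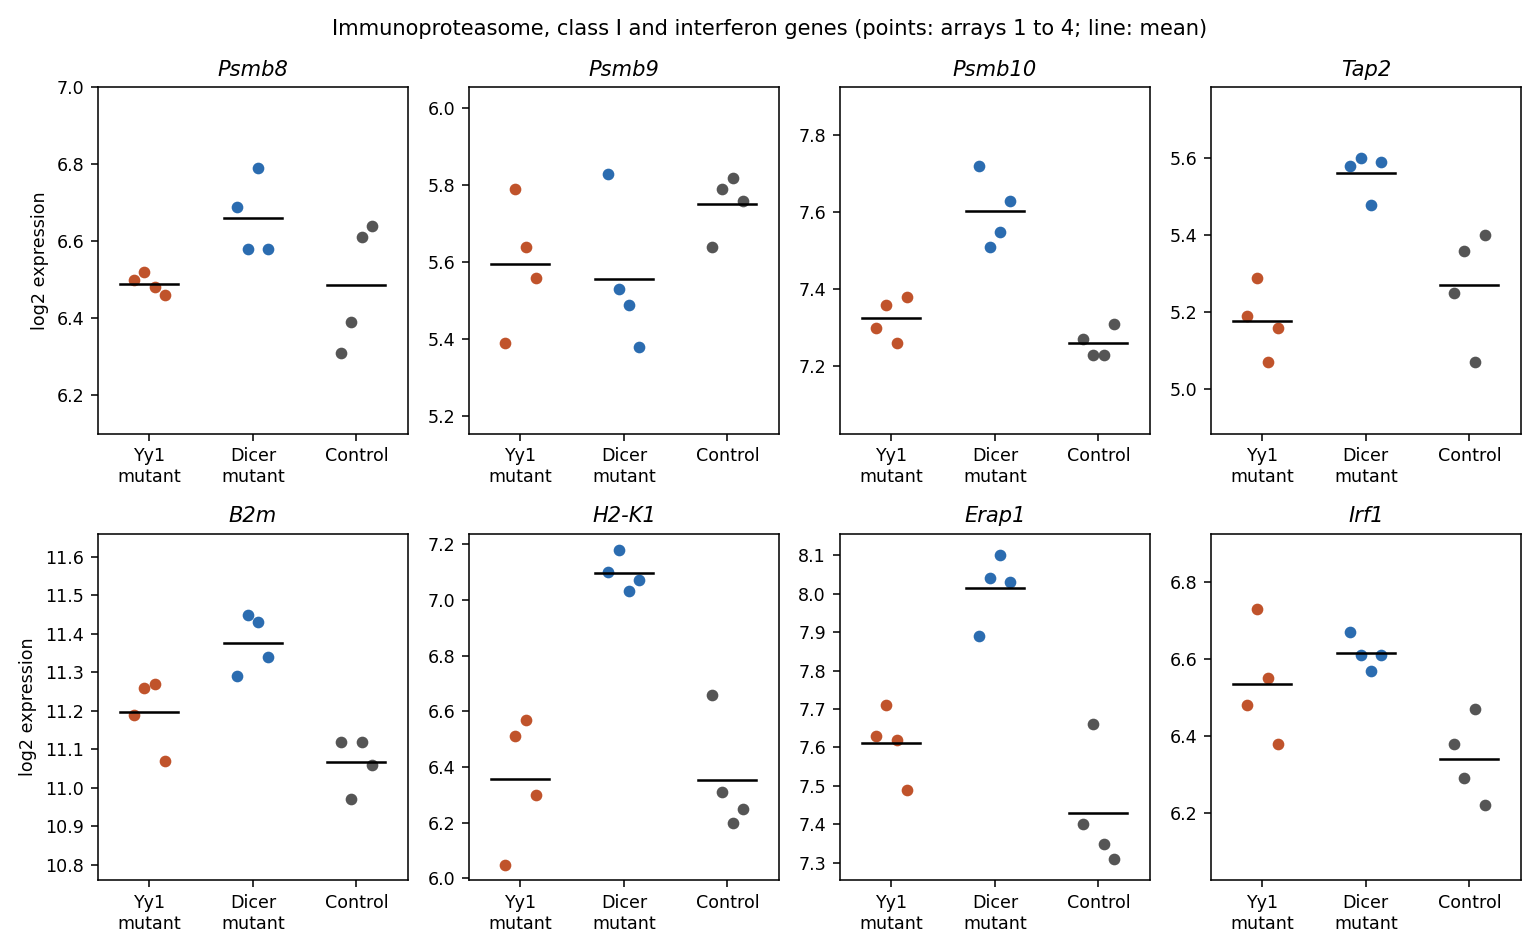
Log2 expression (y axis of each panel, which does not start at 0) of 3 immunoproteasome genes and 5 class I or interferon genes by genotype (x axis); points are single arrays and lines are means of 4 arrays. Psmb10, H2-K1, Erap1, B2m, Tap2 and Irf1 are higher on every Dicer mutant array than on any control array, while Psmb8 and Psmb9 overlap.

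The activators cap the core in place of the regulatory particle, and Psmf1 encodes an inhibitor. limma called 0 of these 5 genes in Yy1 mutants (0 had an unadjusted p under 0.05) and 0 in Dicer mutants (1 had, Psmf1). Psme1 and Psme2 encode the partners of the interferon-inducible activator. Psme1 differed by 0.11 in Yy1 mutants and 0.04 in Dicer mutants. Psme2 read 6.90, 7.08, 7.01 and 6.58 in Yy1 mutants and 7.21, 6.84, 7.30 and 6.81 in Dicer mutants, against 7.33, 6.68, 7.39 and 7.33 in controls. Control 2 lay far below the other controls, and the differences of -0.29 and -0.14 were not called (adjusted p = 0.385 and 0.688). Without control 2 they were -0.46 and -0.31 (adjusted p = 0.0755 and 0.198). Psme2 had the widest residual SD of the 49 genes, 0.273, against a median of 0.0931 for the proteasome genes and 0.134 for all genes. Psmf1 read 8.48, 8.36, 8.50 and 8.50 in Dicer mutants, against 8.68, 8.70, 8.60 and 8.54 in controls. These did not overlap, and the difference of -0.17 was not called (adjusted p = 0.169).

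Among the 7 assembly chaperones limma called 0 in either mutant (0 in Yy1 mutants and 1 in Dicer mutants had an unadjusted p under 0.05). Psmg1, which with Psmg2 starts the alpha ring, read 7.53, 7.77, 7.45 and 7.67 in Dicer mutants and 7.78, 8.26, 7.73 and 7.90 in Yy1 mutants, against 7.94, 8.48, 7.75 and 7.77 in controls. The array numbered 2 was the highest of each genotype, and the Dicer difference of -0.38 was not called (SE 0.156, adjusted p = 0.166). Without control 2 it was -0.21, also not called. Under 1 of 21 settings, the replicate block, Psmg1 was called lower in Dicer mutants (limma, adjusted p = 0.0286). Psmg2 differed by 0.11 in Yy1 mutants and 0.05 in Dicer mutants, Psmg3 by 0.07 and -0.13, and Psmg4 by -0.07 and -0.12. The base chaperones Psmd5, Psmd9 and Psmd10 were all below 0 in both mutants, from -0.12 to -0.01, and none was called.

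Of 28 listed partners of the proteasome 19 were measured, and limma called 0 in Yy1 mutants (4 had an unadjusted p under 0.05, 2 higher and 2 lower) and 0 in Dicer mutants (4, all lower). Over all genes 19.2% had such a p in Yy1 mutants, and 12.1% were lower at that p in Dicer mutants. Nfe2l1 differed by -0.06 in Yy1 mutants and -0.07 in Dicer mutants, and its relative Nfe2l2 by -0.08 and 0.07. Pomp, the maturation factor of the core, differed by -0.03 and -0.17 (adjusted p = 0.908 and 0.225). Sem1, the smallest lid subunit, named outside the Psm scheme, read 9.90, 9.84, 9.92 and 10.02 in Yy1 mutants and 9.56, 9.69, 9.59 and 9.65 in Dicer mutants, against 9.85, 9.60, 9.74 and 9.73 in controls. The mutants did not overlap, and control arrays lay across the gap between them. Sem1 was higher by 0.30 in Yy1 mutants than in Dicer mutants (adjusted p = 0.0233), with 0.19 and -0.11 against control (adjusted p = 0.134 and 0.401). The call was lost without Yy1 mutant 1, 3 or 4 or Dicer mutant 1, 3 or 4 (adjusted p = 0.0517 to 0.0771) and without the 3 Y-linked-high arrays (0.134).

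Counted by overlap alone, all 4 arrays of 1 group lay to one side of the other for 3 of 49 genes (6.12%) in Yy1 mutants against control, where 12.6% of all genes did so. In Dicer mutants against control 12 of 49 did (24.5%), against 16% of all genes. Of the 12, 11 were lower, beside 1874 of all 22180 genes. Between the mutants 9 of 49 did (18.4%), against 13.8%. Of the 9, 7 were higher in Yy1 mutants, beside 1463 of all 22180 genes. The 3 genes in Yy1 mutants were Psmc4, Psmd2 and Psmc3, all lower and named after their values were seen.

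The 3 genes with a further probe set showed how far the choice of probe set matters. For Psmc2, a base ATPase, the dimmer set gave -0.04 in Yy1 mutants and -0.09 in Dicer mutants, beside -0.07 and -0.14. For Psma5 it gave 0.35 in Yy1 mutants, beside 0.08, and -0.05 in Dicer mutants in both sets. For Psmg2 it gave -0.20 in Dicer mutants, beside 0.05, so that the sets differed in direction.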

How the data were processed

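The authors' deposited values are log2 expression values, 1 per probe set and array, from Affymetrix arrays of 1 channel, with biotin-labelled targets per the labels. The 12 array medians lay between 5.99 and 6.08, from which it was inferred that they had been normalised between arrays before deposit. How probes were summarised and normalised, and with which software, is not given in the sources used here. Values ran from 1.10 to 13.6, from which base 2 was inferred. No further normalisation was applied. All 12 columns were matched to samples by their labels, and 0 columns were left without one.

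Gene names came from the platform's annotation. Of 41345 probe sets 23521 had 1 symbol, 1814 had several and 16010 were not listed. Each of the 22180 genes was read from its brightest probe set, by the mean of the 12 arrays. limma 3.58.1 in R 4.3.3 fitted the 3 genotypes in 1 model with 9 residual degrees of freedom and no covariate, with eBayes and Benjamini-Hochberg adjustment over all genes of a comparison. The script was tested on simulated data. Arrays give no count depth, and the number of arrays limits precision. Array 1 to 4 are the labels' replicate numbers.

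The members, classes, partner, class I and cell type lists were chosen with earlier results of these data known. Named genes were all called members, the member of each class with the largest difference in each mutant, and the catalytic, immunoproteasome, activator and core assembly genes. Up to 6 called genes of the partner and class I lists were added, with Nfe2l1, Nfe2l2, Pomp and Irf1. Other members that are named (such as Psmc5, Psmd8 and Psmd14) were named after their values were seen, or for a motif or a further probe set. Of the class I list 9 of 12 genes were measured. Alternatives changed the normalisation, the filter on dim genes, the probe set, the variance prior, array weights, the samples fitted, the replicate block and the arrays left out. A planned comparison of protein sequences was not run. One motif search is not reported here.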

Additional observations from a re-analysis of the deposited data

Results flagged for a closer look

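Among 36 named genes in 3 genotypes, 108 groups of 4 arrays were tested for a single array far from the others, and 4 were found, where chance gives about 1 in 20 groups. Psme2 read 6.68 on control 2, against 7.33 to 7.39 on the other controls. Psmb6 read 9.36 on control 4, against 9.49 to 9.50 on the other controls. Psmg3 read 7.35 on Yy1 mutant 1, against 7.14 to 7.17 on the other Yy1 mutants. Tap2 read 5.48 on Dicer mutant 3, against 5.58 to 5.60 on the other Dicer mutants.

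In 5 genes the mutants differed from each other in the same fit (limma, Yy1 minus Dicer). The difference was -0.28 for Psmb10 (adjusted p = 0.0223), 0.30 for Sem1 (adjusted p = 0.0233), -0.40 for Erap1 (adjusted p = 0.0138), -0.73 for H2-K1 (adjusted p = 0.00231) and -0.39 for Tap2 (adjusted p = 0.0103). Sem1 was higher in Yy1 mutants than in Dicer mutants, and the other 4 were lower. All 4 Yy1 mutant arrays lay to one side of all 4 Dicer mutant arrays in each of the 5 genes, as in 13.8% of all genes. The 5 were picked for their called difference, so this lack of overlap adds no support. The settings that ended these calls are given beside the values above, and H2-K1 kept its call under all of them.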

How the results depend on the processing

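With 4 arrays a genotype, the unadjusted 95% interval of a proteasome gene reached, at the median, 0.16 to either side. Differences smaller than about that could not be told from 0 in most members. A call at an adjusted p under 0.05 asks for more. In Dicer mutants Psmd3 was called at -0.22, while Psmg1 at -0.38 was not. Most members therefore have neither a call nor a shown absence of change. Signal over background is not in the deposited values, so dim genes such as Psmb11 and Tap2 could not be bounded. The 3 arrays with raised Y-linked genes (Yy1 mutants 2 and 3, Dicer mutant 4) have no counterpart among the controls, and leaving them out lowers the number of arrays as well. The cause of the changes below was not tested, beyond the fewer arrays in such fits.

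The count of proteasome genes called in Yy1 mutants against control was 2 with an intensity trend and robust prior (Psmc4 and Psmd11), 0 with only the groups compared, 0 with quantile normalisation, 0 with the replicate block and 0 without the 3 arrays, and 0 to 1 with 1 array left out. In Dicer mutants against control it was 2 with only the groups compared, 1 without the 3 arrays and 2 to 5 with 1 array left out, and 7 with array weights or without the dimmest 30% of genes (adding Psmb4 and Psmc5) and 6 with an intensity trend and robust prior or quantile normalisation (adding Psmc5). In Yy1 minus Dicer it was 2 with array weights, 3 with quantile normalisation, 0 without the 3 arrays and 0 to 1 with 1 array left out. Over all genes, the counts without the 3 arrays were 606 for Yy1 mutants, 976 for Dicer mutants and 435 for Yy1 minus Dicer, where array weights gave 1806. With 1 array left out they were 1020 to 1455, 1275 to 1991 and 726 to 1180. Same-numbered arrays of different genotypes correlated between -0.161 and 0.19 in their deviations from the group means. All were positive in Yy1 mutants against control (0.058 to 0.116) and all negative between the mutants (-0.161 to -0.025). No label says whether a shared number marks a shared litter or day, and these correlations cannot settle it. Of the 8 arrays in each comparison, 4 correlated best with their own number in Yy1 mutants against control, 2 in Dicer mutants against control and 0 between the mutants. The replicate block gave 5 proteasome genes in Dicer mutants, with Psmg1 (adjusted p = 0.0286) in place of Psmd3, and 1301, 1848 and 997 genes over all genes.

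Small differences changed sign in 18 gene comparisons, none of them called. In Yy1 mutants against control, array weights gave 0.0032 for Psmd3, 0.01 for Psmd9 and -0.05 for Psmb8. Quantile normalisation gave 0.00129 for Psme3ip1, 0.01 for Psmd9, 0.01 for Psmb6, -0.02 for Psmb8 and 0.000982 for Pomp. Equal array medians gave -0.01 for Psmb8 and -0.0024 for H2-K1. Without the 3 arrays the values were 0.06 for Psmd10, 0.02 for Psmd9, 0.02 for Psmb6, -0.01 for Psmb8, 0.03 for Pomp and -0.17 for H2-K1. With 1 array left out the ranges were -0.14 to 0.04 for Psma8, -0.07 to 0.03 for Psme3ip1, -0.03 to 0.04 for Psmd9, -0.18 to 0.10 for Psmg1, -0.04 to 0.01 for Psmb6, -0.06 to 0.05 for Psmb8, -0.10 to 0.02 for Pomp and -0.06 to 0.11 for H2-K1.

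In Dicer mutants against control, array weights gave 0.00162 for Psmc3ip, 0.00282 for Psme3ip1 and 0.02 for Psmd10. The mean of all probe sets gave -0.08 for Psmg2, and Psmc3ip was 0.01 without the 3 arrays. With 1 array left out the ranges were -0.12 to 0.00253 for Psma3, -0.05 to 0.07 for Psmc3ip, -0.08 to 0.02 for Psme3ip1, -0.11 to 0.06 for Psmd10, -0.03 to 0.11 for Psme1 and -0.05 to 0.01 for Yy1. Psmc4 in Yy1 minus Dicer was -0.09 without the 3 arrays and -0.03 to 0.04 with 1 array left out. Of the other values for single genes, 1561 kept their direction and their side of the threshold, 74 lost a call and 8 gained one.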
